A study of Mus musculus with 2 samples.

Results

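CD8-negative T cells of mouse pancreatic tumors were taken as the cells that carried transcripts of the CD3 chains without any transcript of the CD8 coreceptor. A cell counted when it had at least 500 unique molecular identifiers (UMIs, each marking 1 captured molecule), at least 2 UMIs over Cd3e, Cd3d and Cd3g making up at least 0.05% of its UMIs, and no UMI of Cd8a or Cd8b1. The rule found 67 of 24282 cells, of which 17 carried a UMI of Foxp3 and 50 did not. The cells were chosen by their measured CD3 and CD8 counts and split on their Foxp3 count, so these values are given as description only. The series profiled orthotopic tumors of KPC cells, a mouse pancreatic cancer model grown in the pancreas, after treatment with the vehicle DMSO or with EIPA, an inhibitor of macropinocytosis, at 10 mg/kg. Each of the 2 samples pooled 4 tumors, and the labels used here give neither the strain nor the age of the mice nor the length of treatment. All cells were fixed and read with gene probes. The barcodes fall into 2 libraries by number, and no label ties a library number to a treatment, so values stand side by side as library 1 and library 2 with no treatment direction, and pooled animals leave no replicate and no test.

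T cells that lack CD8 are mainly CD4 helper cells, which steer other immune cells through cytokines and contact, and regulatory T cells, a CD4 lineage held in place by the transcription factor FOXP3. Regulatory cells restrain other T cells through CTLA-4, through uptake of interleukin 2 by a receptor that contains CD25 (Il2ra) and through other routes, and in tumors they are known to carry CCR8 and receptors of the TNF receptor superfamily such as OX40 (Tnfrsf4), 4-1BB (Tnfrsf9) and GITR (Tnfrsf18). Gamma delta T cells, which read antigen with another receptor, and natural killer T cells can also lack CD8. In pancreatic tumors T cells are a small part of the tissue, and regulatory cells are known as one of its suppressive populations.

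The cells were few in both libraries. Library 1 held 13 of them among 12337 cells, a share of 0.105% (95% exact Clopper-Pearson interval 0.0561 to 0.180%). Library 2 held 54 among the 11932 cells with at least 500 UMIs, 0.453% (0.340 to 0.590%). The interval of library 2 lies above that of library 1, for counting error alone. Their part of all CD3-positive cells was nearer between the libraries, at 18.6% (13 of 70 cells, 10.3 to 29.7%) in library 1 and 24.9% (54 of 217, 19.3 to 31.2%) in library 2, and those intervals overlap. The rest of the CD3-positive cells, 57 and 163, carried a CD8 UMI and are called CD8 T cells below. All intervals here cover counting error only.

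CD8-negative T cells held 39471 UMIs in library 1 and 158050 in library 2, with medians of 1884 and 1827 UMIs per cell, far under the medians of 11695 and 10756 over all barcodes. Cells with a Foxp3 UMI were deeper, with a median of 3027 UMIs against 1593 in those without. The 2 libraries shared 225 barcode sequences, which included 2 of the 67 cells and no pair of them. At the edge of the rule, 15 of the cells had exactly 2 CD3 UMIs and 52 had 3 or more, 42 cells with 1 CD3 UMI fell outside, and 118 cells with 2 or more CD3 UMIs fell under the 0.05% line. The lowest CD3 share inside was 0.0515% and the highest outside was 0.0489%. A missing CD8 UMI is weak evidence at this depth: of 197 CD8 T cells drawn down to 1000 UMIs each, 32 (16.2%, 11.4 to 22.2%) kept no CD8 UMI, and 12 of them (6.09% of the 197, 3.19 to 10.4%) still had the 2 CD3 UMIs that would have placed them in the CD8-negative group.

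The labelled cell type was checked against its markers. Trac, the constant region of the alpha chain of the T cell receptor, had a UMI in 45 of the 67 cells, and Trac, Trbc1 or Trbc2 in 50, beside 203 of 220 CD8 T cells. Cd4, the coreceptor of helper and regulatory cells, had a UMI in 32 of the 67 cells (47.8%, 35.4 to 60.3%), against 10 of 220 CD8 T cells (4.55%, 2.20 to 8.20%). Drawn down to 1000 UMIs, Cd4 was found in 36.8% of 57 CD8-negative T cells, 1.02% of 197 CD8 T cells, 0.2% of 1000 Epcam-positive tumor cells and 2.7% of 1000 macrophage-like cells with C1q or Lyz2 transcripts. Cd4 thus stood well above its level in the CD8 T cells, the Epcam-positive cells and the macrophage-like cells.

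Markers of myeloid cells were also present, and 13 of the 67 cells (19.4%, 10.8 to 30.9%) had 1% or more of their UMIs in a list of 10 macrophage genes or in a list of 10 dendritic cell genes. Of these, 8 carried Trac. The same held for 49 of 220 CD8 T cells (22.3%, 16.96 to 28.4%), and the intervals of the CD8-negative and the CD8 T cells overlap. By group, 3 of the 17 cells with Foxp3 and 10 of the 50 without were marked. By library, they were 2 of 13 and 11 of 54. The summed macrophage markers per cell ran from 0 to 50000 CPM, UMIs scaled to a common total, in library 1 and from 0 to 71566 in library 2, and all 10 genes had a UMI in each library. The cell at 71566 CPM, cell 9 of library 2, had 2 CD3 UMIs and held 10 of the 83 Cd4 UMIs of the 67 cells. The summed dendritic markers ran from 0 to 65278 and from 0 to 74339 CPM, and 4 and 9 of the 10 genes had a UMI. Epithelial markers had a UMI in 12 of 13 and 44 of 54 cells, at summed levels of 3268 and 2986 CPM against 9240 and 9551 CPM in Epcam-positive cells, and in 54 of 57 and 152 of 163 CD8 T cells. Markers of natural killer cells were close to absent: Ncr1, Klrb1c, Eomes, Klra7 and Klra8 were at 0 in all 67 cells. Calls of named genes that are lost or gained without the myeloid-marked cells are given beside the result. The part these cells play in the results was otherwise not tested.

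**Figure D1:**
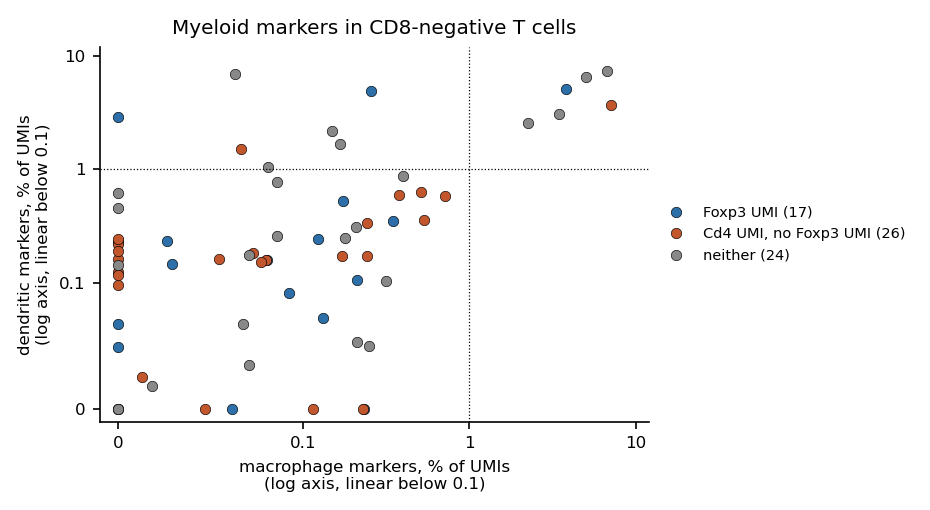
Share of each cell's UMIs in the macrophage list (horizontal, %) and the dendritic list (vertical, %), on axes that are logarithmic above 0.1 and linear below, for the 67 CD8-negative T cells colored by the transcript they carry. Dotted lines mark 1%; the 13 cells beyond either line belong to all 3 colored groups.

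Sorted in a fixed order by a Foxp3 UMI, then a Cd4 UMI, then a UMI of the gamma delta receptor genes, then one of 7 natural killer markers, most cells of both libraries fell into the Foxp3 and Cd4 groups. Library 1 had 1 cell with Foxp3 (7.69% of 13, 0.195 to 36.0%), 7 with Cd4 and no Foxp3 (53.8%, 25.1 to 80.8%), 2 with a gamma delta receptor UMI and 3 with none of these. Library 2 had 16 with Foxp3 (29.6% of 54, 17.98 to 43.6%), 19 with Cd4 and no Foxp3 (35.2%, 22.7 to 49.4%), 1 with a gamma delta receptor UMI and 18 with none. No cell was left for the natural killer group, which comes after the others in the order. A natural killer marker had a UMI in 1 cell of library 1 and 4 cells of library 2, all placed by an earlier transcript. Cell 1 of library 2, placed by Cd4, also held 4 UMIs of the gamma delta receptor genes. The intervals of the libraries overlap in every group, so neither library's makeup stood apart at these numbers. Of the 18 unplaced cells of library 2, which had a median of 1200.5 UMIs, 5 carried Trac and 6 carried Trbc1 or Trbc2.

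**Figure D2:**
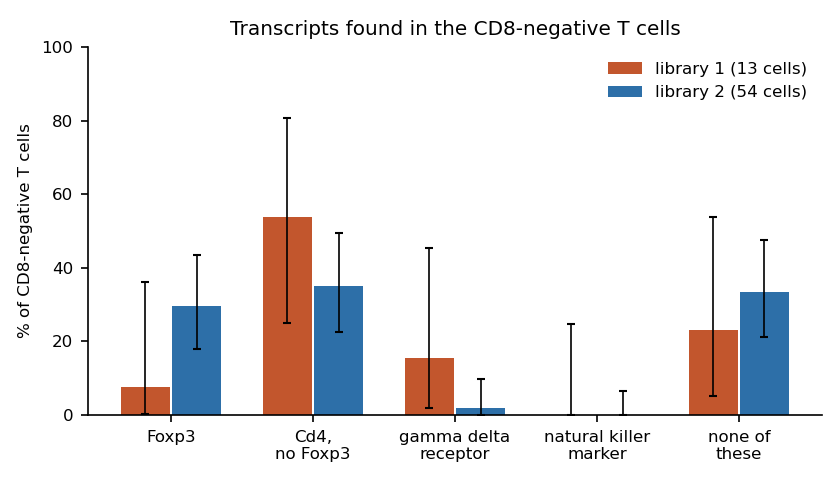
Share of the CD8-negative T cells of library 1 (13 cells) and library 2 (54 cells) that carry each transcript, in %, with exact 95% Clopper-Pearson intervals as bars. Each cell is counted once, in the order shown from left to right; the intervals of the libraries overlap in every group.

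A few cells stood out singly, and were chosen after their values were seen. Cell 7 of library 1, with 1884 UMIs, held 6 UMIs of Trdc (the constant region of the delta chain), 2 of Tcrg-V6 and 12 of the 13 UMIs of the scavenger receptor gene Cd163l1 found in the group. Both other cells placed by a gamma delta receptor UMI had no Trdc UMI and at least 1% of their UMIs in myeloid markers. Cell 36 of library 2, with 1479 UMIs, held 8 UMIs of Zbtb16, the factor of natural killer T and other innate-like cells, and 2 of Trbv20.

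Foxp3 transcripts were found in few cells of the series. The series held 258 Foxp3 UMIs in 155 cells, and the 17 CD8-negative T cells carried 47 of them, 1 in library 1 and 46 in library 2. Of the others, 4 cells were CD8 T cells, 45 had a CD3 UMI but did not meet the CD3 rule, and 89 had no CD3 UMI. Per cell the counts ran from 1 to 8 Foxp3 UMIs, with 4 cells at 1 and 13 at 2 or more. At 1000 UMIs per cell, Foxp3 was found in 9 of 57 CD8-negative T cells (15.8%, 7.48 to 27.9%) and in 0 of 197 CD8 T cells, 0 of 1000 Epcam-positive cells and 0 of 1000 macrophage-like cells, the last of which allow a share of up to 0.3%. In the full data Foxp3 had a UMI in 25.4% of CD8-negative T cells (median 1838 UMIs), 1.82% of CD8 T cells (2212 UMIs) and 0.381% of Epcam-positive cells (16263 UMIs). All 9 cells found at the fixed depth were in library 2, where they made up 19.6% of 46 cells (9.36 to 33.9%), and 0 of 11 cells in library 1 allow a share of up to 27.3%. Drawn down, the Foxp3 share therefore was not detectably different between the libraries.

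Cells with and without a Foxp3 UMI were compared to see which other transcripts go with Foxp3. UMIs were summed over the cells of each group and given as CPM, and a gene was called higher or lower when the exact Poisson 95% intervals of the groups lay apart and the fold on the log2(CPM + 10) scale was at least 2. Of 2911 genes with at least 100 CPM and 10 UMIs in the higher group, 52 (1.79%) were called higher and 48 (1.65%) lower in the cells with Foxp3. Of the 14 genes of the regulatory T cell list that could be called, 8 were higher and 0 lower, with a median log2 ratio of 1.26 against -0.17 over all genes. A list of 14 TNF receptor and costimulation genes, which shares members with the first, had 3 of 8 higher and 0 lower, with a median of 0.95. With median-of-ratios factors the counts over all genes were 44 higher and 68 lower, and with TMM factors 45 and 61. The sums also leaned on 3 cells above 10000 UMIs, 1 with Foxp3 and 2 without. Leaving them out gave 41 higher and 48 lower genes, but only 27 of the 52 and 19 of the 48 calls were kept. Of 15 regulatory list genes 8 were then higher. Library 2 held 16 of the 17 cells, so the values with Foxp3 are mostly those of library 2.

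Receptor genes of regulatory cells were among those called higher. Il2ra, the alpha chain of the high-affinity interleukin 2 receptor, stood at 0 CPM in the single Foxp3 cell of library 1 and 315.2 CPM (180 to 512) in those of library 2, against 32.1 and 9.32 CPM in the cells without Foxp3, 1 UMI in each library. Over both libraries that is 16 UMIs in 7 cells against 2 UMIs in 2 cells, a log2 ratio of 3.52 with a fold of 4.41 to 168. Ctla4, which removes the costimulatory ligands CD80 and CD86 from antigen-presenting cells, stood at 360 CPM (1 cell) and 512 CPM (334 to 750) with Foxp3 and at 96.3 and 168 CPM (99.4 to 265) without, a log2 ratio of 1.63 with a fold of 1.78 to 5.97. In library 1 Ctla4 had 3 UMIs in each group and the intervals overlap (74.3 to 1053 against 19.9 to 281.5 CPM), so only library 2 separates the groups. Ccr8, a chemokine receptor known on tumor regulatory cells, stood at 0 and 552 CPM (367 to 797) with Foxp3 and at 64.2 and 177 CPM (107 to 277) without, a log2 ratio of 1.58. The Ccr8 difference was thus seen in library 2, and library 1 could not show it with 1 cell. Cell 14 of library 2, which carried Foxp3, held 13 of the 49 Ccr8 UMIs of the CD8-negative T cells. No other Foxp3 cell held more than 4. The Ccr8 difference without cell 14 alone was not tested, so its call may depend on 1 cell.

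All 3 TNF receptors named above were higher with Foxp3. Tnfrsf9 had the largest ratio of them, with 120 and 1241 CPM (954 to 1588) in Foxp3 cells of libraries 1 and 2 against 161 and 196 CPM (121 to 299) in the others, a log2 ratio of 2.47 with a fold of 3.60 to 9.48. Tnfrsf4 stood at 120 and 650.0 CPM (447 to 913) against 96.3 and 168 CPM, a log2 ratio of 1.86. Tnfrsf18 stood at 240.2 and 1103 CPM (833 to 1432) against 385 and 261 CPM (173 to 377), a log2 ratio of 1.73. In library 2 the Foxp3 cells were high for each of the 3 receptors with intervals apart from those of the other cells, while the single Foxp3 cell of library 1 lay inside the interval of its neighbors for all 3. Ikzf2, which encodes the transcription factor Helios of regulatory cells, had a log2 ratio of 1.39 (39 against 34 UMIs), and Itgae, the CD103 integrin chain that binds E-cadherin, had 1.14 (43 against 45 UMIs). In library 1 alone Ikzf2, Itgae and Tnfrsf18 had ratios under 0, at -1.35, -0.31 and -0.66.

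Other members of the list did not separate the cells. Icos, a costimulatory receptor of helper and regulatory cells, had 17 against 18 UMIs, a log2 ratio of 1.09 and Poisson intervals that overlap. Pdcd1, which encodes the inhibitory receptor PD-1, stood at 480.5 and 669.7 CPM with Foxp3 and 642 and 475 CPM without, a log2 ratio of 0.32. Lag3 had a log2 ratio of -0.97 and was called lower only once the myeloid-marked cells were left out, at -1.14. Of the secreted products, Il10 had 4 UMIs in 1 cell of the group, and Areg had 2 and 13 UMIs in the cells with and without Foxp3. The anti-inflammatory cytokine gene Il10 was therefore below the depth at which a difference could be seen.

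Cytotoxicity genes were among those lower in the cells with Foxp3. Of 6 cytotoxicity genes that could be called, 3 were lower and 0 higher, with a median log2 ratio of -1.99, or -1.84 with the 2 genes at 0 in Foxp3 cells held at the bound that 3 UMIs allow. Gzma, a granule protease, had 0 UMIs with Foxp3 and 36 without, at least 5.12-fold lower, but its UMIs lay in 4 cells. Ccl5, a chemokine of effector cells, had 0 UMIs against 25 in 10 cells, at least 3.56-fold lower. Without the myeloid-marked cells Ccl5 had 0 against 15 UMIs and was not called, and 2 of 6 cytotoxicity genes were lower. Nkg7, a granule protein, had 11 against 96 UMIs, with 0 and 217 CPM against 610.0 and 718 CPM in libraries 1 and 2, a log2 ratio of -1.84. Cxcr6, a chemokine receptor of tissue effector cells, had 1 against 27 UMIs, a log2 ratio of -2.93. Bcl2, the survival factor, stood at 237 against 585 CPM, a log2 ratio of -1.27.

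Cd4 was lower, not higher, in the cells with Foxp3. It stood at 120 CPM (1 UMI) and 158 CPM (68.0 to 310.5) with Foxp3 in libraries 1 and 2, and at 514 CPM (294 to 834) and 541 CPM (410.5 to 699) without. The log2 ratio was -1.75 with a fold of 0.13 to 0.57, and a Cd4 UMI was present in 6 of 17 cells with Foxp3 and 26 of 50 without. In both libraries the Foxp3 cells had the lower value, but 1 UMI in 1 cell of library 1 cannot separate the groups. Only library 2 had intervals apart. At 1000 UMIs per cell the ratio was -2.67. Trac, in contrast, stood at 592 and 773 CPM in the pooled groups with intervals that overlap.

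**Figure D3:**
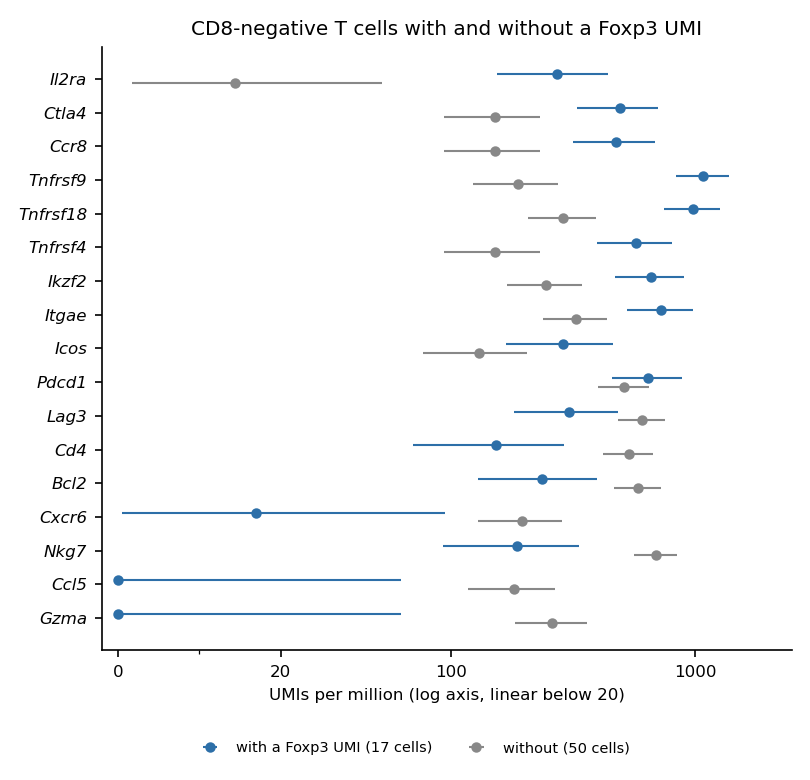
Levels of 17 genes in CPM, on an axis that is logarithmic above 20 and linear below, in CD8-negative T cells with a Foxp3 UMI (17 cells) and without (50 cells), both libraries summed, with exact Poisson 95% intervals. Il2ra, Ctla4, Ccr8, Tnfrsf9, Tnfrsf18, Tnfrsf4, Ikzf2 and Itgae lie higher with Foxp3 with intervals apart, and Cd4, Bcl2, Cxcr6, Nkg7, Ccl5 and Gzma lie lower.

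The regulatory genes were found together in single cells. Of 7 genes, Ctla4, Il2ra, Ikzf2, Tnfrsf4, Tnfrsf18, Ccr8 and Icos, the Foxp3 cells carried a median of 5 in both libraries (1 and 16 cells), and 14 of the 16 in library 2 carried at least 3 (87.5%, 61.7 to 98.4%). Cells without Foxp3 carried a median of 2 in library 1 and 1 in library 2, where 13 of 38 carried at least 3 (34.2%, 19.6 to 51.4%). CD8 T cells carried a median of 1 in both, and 44 of 163 in library 2 carried at least 3 (27.0%, 20.3 to 34.5%). At 1000 UMIs per cell the shares with at least 3 in library 2 were 62.5% of 16 Foxp3 cells (35.4 to 84.8%), 16.7% of 30 cells without (5.64 to 34.7%) and 7.59% of 145 CD8 T cells (3.85 to 13.2%). In library 2 the Foxp3 cells stood above the cells without Foxp3 at equal depth. Their intervals lay only just apart, at 35.4% against 34.7%, in 1 draw. All of the 7 genes but Icos had been called higher in these same cells. The higher count is therefore description and no separate support. In library 1 the single Foxp3 cell carried 1 of the 7 genes at that depth, against a median of 1.5 in 10 cells without Foxp3, of which 2 carried at least 3.

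Cells with Cd4 and no Foxp3 UMI were mixed in these genes. In library 2 the 19 such cells carried a median of 3 of the 7, and 10 carried at least 3, while in library 1 the 7 such cells carried a median of 2. The cells with neither Foxp3 nor Cd4 nor a gamma delta UMI in library 2 carried a median of 1, and 3 of 18 reached 3. A Foxp3 UMI was still found in only 9 of the 17 Foxp3 cells after drawing them down to 1000 UMIs (52.9%, 27.8 to 77.0%), a depth that 10 of the 50 cells without Foxp3 did not reach, so absence of the UMI does not show absence of the transcript.

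**Figure D4:**
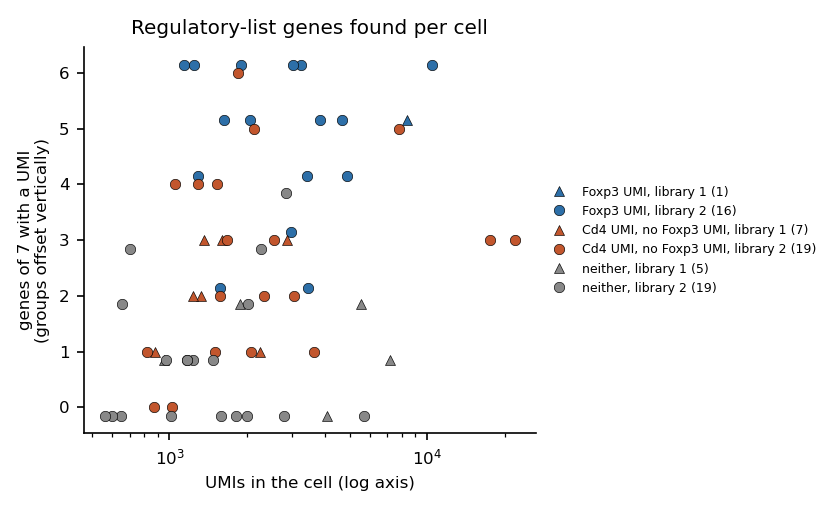
Number of 7 regulatory-list genes with a UMI (vertical) against the UMIs of the cell (horizontal, log axis) for the 67 CD8-negative T cells, with triangles for library 1, circles for library 2 and colors for the transcript carried; groups are offset vertically. Foxp3 cells lie between 2 and 6 genes, and cells without Foxp3 between 0 and 6.

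Genes outside the lists were named by a fixed rule of size, and most rested on few cells. Of 24 genes so named, the highest included Prxl2a (log2 ratio 2.32), Vps37a, an endosomal sorting subunit (2.31), and Ass1, an enzyme of arginine synthesis (2.09), and Ube2c, a ubiquitin-conjugating enzyme of mitosis, had 1.92. Among the lowest were the interferon-induced GTPase gene Gbp2 and the innate-like factor Zbtb16, both at 0 against 19 UMIs and at least 2.70-fold lower. Of the 24, only 4 were still called after each gene lost its 3 highest cells in each group, 1 at 1000 UMIs per cell and 13 without the myeloid-marked cells. Without the myeloid-marked cells Ass1 (8 against 3 UMIs), Gbp2 (0 against 14) and Zbtb16 (0 against 12) were not called. Of the regulatory list genes that could be called under the same settings, 6 of 10, 4 of 11 and 8 of 15 were higher, and 1, 0 and 1 lower. Tnfrsf4 and Ctla4 belong to the 24 genes and to this list. At 1000 UMIs per cell the 4 were Tnfrsf9, Tnfrsf4, Ccr8 and Itgae. Without the cells above 10000 UMIs, 15 of the 24 named genes were still called.

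The promoters of the regulatory genes that moved together were read from RefSeq (GRCm38.p6), which held 7 start sites for 6 of the 8 genes. The 250 bases before the start are shown for the 3 genes of highest ratio or best known role, as the sequence context of the genes that go with Foxp3. Capitals mark matches on either strand to GGAAA (the core letters of NFAT sites), a form of the NF-kB motif or TAAACA (the forkhead core), which may touch or overlap. Tnfrsf9 had another start site, whose window (chr4:150927749-150927998) is not shown. That window held 3 matches to GGAAA, 1 to the NF-kB form and none to TAAACA, unlike the window shown.

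Il2ra, chr2:11642542-11642791, plus strand: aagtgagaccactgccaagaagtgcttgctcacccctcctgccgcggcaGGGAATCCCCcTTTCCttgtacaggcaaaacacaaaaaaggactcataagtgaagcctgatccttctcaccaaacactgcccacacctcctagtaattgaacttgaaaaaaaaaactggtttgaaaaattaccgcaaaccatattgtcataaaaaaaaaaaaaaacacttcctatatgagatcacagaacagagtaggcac

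Tnfrsf9, chr4:150919905-150920154, plus strand: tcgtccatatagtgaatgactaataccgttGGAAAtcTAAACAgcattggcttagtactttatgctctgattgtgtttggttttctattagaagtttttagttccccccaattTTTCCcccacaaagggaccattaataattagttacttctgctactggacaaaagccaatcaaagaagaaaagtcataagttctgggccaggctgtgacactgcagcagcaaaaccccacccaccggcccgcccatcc

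Ctla4, chr1:60908775-60909024, plus strand: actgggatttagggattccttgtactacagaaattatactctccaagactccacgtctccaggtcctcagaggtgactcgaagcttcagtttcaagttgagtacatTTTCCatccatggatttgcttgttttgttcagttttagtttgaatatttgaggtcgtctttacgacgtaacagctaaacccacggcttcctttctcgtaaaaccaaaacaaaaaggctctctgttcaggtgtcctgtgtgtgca

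GGAAA was present in 6 of the 7 windows and in 55.6% of 32851 windows of all genes. The NF-kB form was present in 3 of the 7 and in 17.6% of all, and TAAACA in 1 of the 7 and in 12% of all. These are counts of letters in 7 windows and show no binding.

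Against CD8 T cells, the CD8-negative T cells carried more transcripts of helper and regulatory genes and fewer of cytotoxic and natural killer genes. Of 3434 genes that could be called, 51 (1.49%) were higher and 65 (1.89%) lower in the CD8-negative cells, leaving out the CD8 genes that made the groups. Of 5 helper lineage genes 4 were higher, with a median log2 ratio of 1.92 against 0.04 over all genes. Of 17 regulatory genes 9 were higher and 0 lower, with a median of 1.06, or 0.32 in library 1 alone. Of 8 cytotoxicity genes 6 were lower and 0 higher, with a median of -1.85, and of 7 natural killer and innate-like genes 4 were lower and 0 higher, with a median of -1.33.

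Among helper genes, Cd4 stood at 420.2 CPM (335 to 521) in the CD8-negative cells and 20.6 CPM (12.6 to 31.8) in the CD8 T cells, a log2 ratio of 3.81 with a fold of 12.4 to 35.1. Icos stood at 177 CPM (123 to 246) against 21.6 CPM (13.4 to 33.1), a log2 ratio of 2.57, and was higher in both libraries. Il7r, the interleukin 7 receptor chain of memory cells, had a log2 ratio of 1.92 (22 of 67 cells against 32 of 220), and Gata3, a transcription factor of helper cells, had 1.70. Cd5, which dampens receptor signaling, stood at 435 against 129 CPM, a log2 ratio of 1.68.

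Regulatory genes were higher over the 67 cells together. In library 2 the Ctla4 sum was also higher in the cells without Foxp3, but 10 of its UMIs came from 1 cell. Over all cells Ctla4 stood at 253 CPM (188 to 334) against 47.4 CPM (34.7 to 63.2), a log2 ratio of 2.20, Tnfrsf4 at 278 against 62.8 CPM (1.99), Ccr8 at 248 against 65.9 CPM (1.77), Tnfrsf18 at 496 against 168 CPM (1.51) and Izumo1r, the folate receptor 4 of helper and regulatory cells, at 106 against 35.0 CPM (1.37, but -0.50 in library 1). Nt5e, the CD73 ectoenzyme that makes adenosine, stood at 304 against 120 CPM (1.27). Swap70 had 1.06, and 0.61 with no call without the myeloid-marked cells. Cell 27 of library 2 held 10 of the 21 Ctla4 UMIs found in the cells without Foxp3 of both libraries. No other cell without Foxp3 held more than 3. Cell 27 also held 5 UMIs of Tnfrsf18 and 1 each of Il2ra and Ccr8. The level without that cell was not tested, so the Ctla4 difference from CD8 T cells may rest on 1 cell. The cells without Foxp3 in library 2 held 168 CPM of Ctla4 (99.4 to 265), above the 50.2 CPM (35.0 to 69.9) of the CD8 T cells of that library. Tnfrsf9 differed from this pattern: the cells without Foxp3 in library 2 stood at 196 CPM (121 to 299) and the CD8 T cells at 251 CPM (215 to 291), with intervals that overlap. Over all 67 cells Tnfrsf9 had a log2 ratio of 0.84 and was not called, but without the myeloid-marked cells it was called higher at 1.08, as was Il2ra at 1.64.

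Further genes named by the rule of size were S100a4, a calcium-binding protein of migrating cells (365 against 78.2 CPM, log2 ratio 2.09), Cxcr3, the receptor of interferon-induced chemokines (147 against 35.0 CPM, 1.80), Gpr183, an oxysterol receptor that guides lymphocytes (1.81), Podnl1 (2.54), Tspan32 (1.87) and Ighm, an immunoglobulin gene (2.13). Ccr4, the receptor of CCL17 and CCL22, had 16 UMIs in the CD8-negative cells and 0 in the CD8 T cells, at 81.0 CPM in the first, which is under the minimum of 100 CPM for a call. Of the 10 B and plasma cell markers the CD8-negative cells held 1 in library 1 and 5 in library 2 with a UMI, and Ighm fell to 1.47 without the myeloid-marked cells.

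The lower side held the granule and chemokine genes of killer cells. Gzma stood at 182 CPM (128 to 252) in the CD8-negative cells, from 4 cells, against 727 CPM (674 to 783) in CD8 T cells, a log2 ratio of -1.94. The Gzma ratio was -0.83 in library 1, under the fold of 2, -2.93 in library 2 and -5.08 without its 3 highest cells in each group. Gzmk stood at 15.2 against 125 CPM (-2.42), Gzmb at 45.6 against 178 CPM (-1.76) and Ccl5 at 127 against 369 CPM (-1.47). Xcl1, a chemokine that draws cross-presenting dendritic cells, had 20 UMIs in 67 cells against 725 in 220 cells (-2.77), and Ccl3 and Ccl4 had log2 ratios of -2.92 and -1.94. Cd7, a surface receptor of T and natural killer cells, had the lowest ratio of all genes named by the rule (3 against 231 UMIs, -3.30), and the lectin receptor genes Klre1 and Klrd1 had -2.08 and -1.33. Nkg7 had a log2 ratio of -0.90, less than the fold of 2, but -1.31 as a mean of per-cell shares, -1.39 at 1000 UMIs per cell and -1.34 without its 3 highest cells in each group. Pdcd1 was present in both groups, at 47.4% and 51.3% of cells drawn down to 1000 UMIs.

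**Figure D5:**
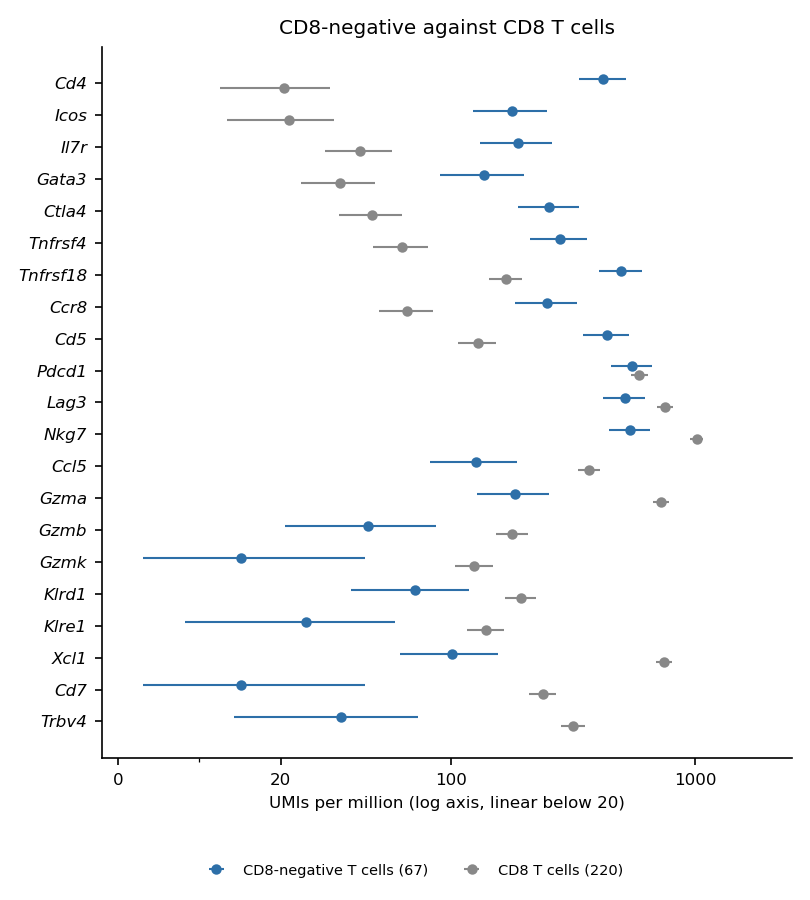
Levels of 21 genes in CPM, on an axis that is logarithmic above 20 and linear below, in the 67 CD8-negative and the 220 CD8 T cells, both libraries summed, with exact Poisson 95% intervals. Helper and regulatory genes from Cd4 to Cd5 lie higher in the CD8-negative cells, Pdcd1 overlaps, and genes from Ccl5 to Trbv4 lie lower.

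Beside these differences, 3 of the 8 fibroblast markers, Col1a1, Col1a2 and Col3a1, were lower in the CD8-negative cells, with log2 ratios of -2.80, -2.53 and -2.75. The highest CD8 T cell of library 2 held 158610 CPM of the fibroblast list, against a highest value of 2381 among the CD8-negative cells. With at least 3 CD3 UMIs making up 0.1% of a cell's UMIs, the log2 ratio of Col1a2 was 0.04. The part of fibroblast transcripts in the other results was not tested. Of 10 macrophage markers, 7 could be called and none was higher or lower.

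Beta chain variable genes of the T cell receptor differed between the groups in which were found. Of the 67 cells, 20 had UMIs of 1 variable gene, 6 of more than 1 and 41 of none. Of the 220 CD8 T cells these were 122, 40 and 58. Any variable gene was thus found less often in the CD8-negative cells, which lowers their share for each gene. Trbv4 was found in 5 of 67 CD8-negative T cells (7.46%) and in 99 of 220 CD8 T cells (45%), at 23 and 76 cells in libraries 1 and 2, and its level was 35.4 CPM (14.3 to 73.0) against 317 CPM (283 to 355), a log2 ratio of -2.85. The CD8-negative cells with Trbv4 were 1 in library 1 and 4 in library 2. Trbv26 was found in 3 and 27 cells, the 27 all in library 2, Trbv13-1 in 6 and 17 cells, and Trbv20 in 3 and 0 cells. No variable gene was found in more than 6 of the CD8-negative cells. Single cells share tumors and possibly clones, so cells with 1 variable gene are not independent draws.

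The libraries were set side by side within the 67 cells. Of 2362 genes that could be called, 36 (1.52%) were higher and 53 (2.24%) lower in library 2, and the median log2 ratio of all genes was 0.42, against which single ratios should be read. With TMM factors the counts were 60 higher and 39 lower, and with median-of-ratios factors 72 and 36. Of 16 regulatory genes 3 were higher in library 2 and 0 lower, with a median of 1.12: Foxp3 (46 against 1 UMIs, log2 ratio 3.09), Ccr8 (47 against 2 UMIs, 2.34) and Tnfrsf9 (84 against 6 UMIs, 1.74). Without the myeloid-marked cells Ccr8 was called, at 43 against 0 UMIs, while Foxp3 (35 against 1 UMIs, log2 ratio 2.64) and Tnfrsf9 (73 against 6 UMIs, 1.38) were not. At 1000 UMIs per cell 0 of 13 regulatory genes were called between the libraries. The higher level of these genes in library 2 goes with its 16 Foxp3 cells against 1 in library 1, and fewer cells of a kind and less RNA per cell cannot be told apart in such sums.

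Other genes apart between the libraries rested on few cells. Ero1l, an oxidase of the endoplasmic reticulum, had 40 UMIs in 16 cells of library 2 and 0 in library 1, and Gstp1, a glutathione transferase, had 31 UMIs in 17 cells against 0. Of the 41 UMIs of the chemokine gene Ccl1 in library 2, 24 came from 1 cell, and of the 32 UMIs of Cyp26b1, which degrades retinoic acid, 25 came from 1 cell. In library 1 Gzma stood at 659 CPM from 3 cells against 63.3 CPM in library 2, and the complement genes C1qa, C1qb and C1qc, which are macrophage markers, had log2 ratios of -1.69, -1.28 and -1.62. Without the myeloid-marked cells C1qa had 7 UMIs in library 2 and 0 in library 1, C1qb 14 and 5, and C1qc 0 and 2, all under the minimum for a call, and the sign of C1qa turned. Cyp26b1 then had 1 UMI in library 2, and Ccl1 was not called (38 against 2 UMIs, log2 ratio 1.92). Of the 24 genes named by the rule, 8 were still called without the myeloid-marked cells and 0 after the 3 highest cells per gene were left out, a step that removes 3 of the 13 cells of library 1 for each gene.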

How the data were processed

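The authors deposited 1 matrix of UMI counts, 19059 genes by 24282 barcodes, made with Cell Ranger 8.0.0 on mm10 per the submitters' processing notes, from fixed cells of 2 samples read with gene probes, per the labels' protocols. The number after each barcode gave the library. Cells of 500 UMIs or more entered the rule, and counts were summed per group and divided by the group's total. No sample had a replicate and no library number was tied to a treatment, so no test was run: exact Poisson and Clopper-Pearson intervals (95%) cover counting error only, not the spread between cells or tumors, and PCR copies that UMIs do not remove would narrow them. Genes needed 100 CPM and 10 UMIs in the higher group, a pseudocount of 10 CPM was added, and 3 counts were taken as the limit of a count of 0. Shares at equal depth came from 1 draw of 1000 UMIs per cell.

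The cells and the gene lists were chosen with earlier results of these data known. Genes were named when they were list members with at least 5 UMIs in the group, or among the 12 highest or 12 lowest called ratios from at least 5 cells, at no lower a level than in cells without CD3, and, against Foxp3-negative or CD8 T cells, with the same sign in both libraries. Of 299 list entries 290 were found by name, and Scart2, Trgc1, Trgc2, Trgc4, Trdv4, Trdv1, Znf683, Cx3cr1 and Mx2 were not. The gamma delta constant genes were measured under the names Tcrg-C2 and Tcrg-C4, with 6 and 3 UMIs in the CD8-negative cells. Doublets were kept: the automatic threshold of Scrublet took out 2084 barcodes in the first library and 0 in the second, and an alternative therefore removed the top 1218 and 1141 scores instead. The others were stricter cell rules, equal depth, TMM factors (edgeR 4.0.16), median-of-ratios factors, per-cell means, pseudocounts of 1 and 50, no gene filter, leaving out the 3 highest cells per gene, each library alone and, chosen after seeing the data, leaving out myeloid-marked cells. The calling script was checked on simulated data. Python 3.11.15, numpy 2.4.6, scipy 1.17.1, pandas 2.3.3, scanpy 1.11.5 and matplotlib 3.10.9 were used. Some genes that the rule named are not reported here. Promoter windows and motif letters were chosen after the called genes were known.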

Additional observations from a re-analysis of the deposited data

Results flagged for a closer look

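Some ratios had opposite signs in the libraries. These differences were not tested, and library 1 held a single cell with Foxp3 and 13 CD8-negative T cells in all. Between cells with and without Foxp3, the log2 ratio of Ikzf2 was -1.35 in library 1 and 1.70 in library 2. Itgae had -0.31 and 1.42, Pdcd1 had -0.41 and 0.49, and Tnfrsf18 had -0.66 and 2.04. The median of the regulatory T cell list was -1.35 in library 1 and 1.42 in library 2, and that of 9 MHC class I genes was -1.15 and 0.14.

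Between CD8-negative and CD8 T cells, 4 list medians lay on opposite sides of 0. The T cell receptor and signaling list had -0.33 in library 1 and 0.25 in library 2, proliferation had -0.57 and 0.28, MHC class I had -0.035 and 0.24, and the TGF-beta list had -0.25 and 0.18.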

How the results depend on the processing

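Over the alternatives, 1458 values of single genes stayed within the interval of the main ratio, 108 moved and 6 reversed, and 540 list medians stayed while 10 moved. A reversal was counted only for genes called in the main result. Genes not called, and list medians, could change sign inside a wide interval and still count as staying. Pdcd1 by Foxp3 did so in library 1 alone, at -0.41. The cause was not tested beyond what each setting leaves out. With at least 3 CD3 UMIs at 0.1%, the share of CD8-negative T cells in library 2 was 0.285%, the Foxp3 share in library 1 and the gamma delta share in library 2 were 0, the called counts (higher, lower) were 27 and 28 for Foxp3 and 21 and 25 between libraries, 128 genes were higher against CD8 T cells, the proliferation median between libraries was 4.56 and Col1a2 was at 0.038. At 1000 UMIs per cell those 2 shares were again 0, the counts were 10 and 10 for Foxp3 and 2 and 6 between libraries, 32 genes were lower against CD8 T cells, the tissue residence median there was -0.60, and C1qa between libraries was at 0.15. Without myeloid-marked cells the gamma delta share in library 2 was 0. Without cells above 10000 UMIs the natural killer median for Foxp3 was -2.66 and 109 genes were higher against CD8 T cells. Means of per-cell shares gave 85 and 129 genes for Foxp3, 178 higher between libraries and 127 higher against CD8 T cells. Without the 3 highest cells per gene 10 genes were higher for Foxp3, 66 higher and 0 lower between libraries with H2-Aa at 0.90, and 19 higher and 151 lower against CD8 T cells with a natural killer median of -2.43. In library 1 alone the counts for Foxp3 were 20 and 28, the T cell receptor and regulatory medians were both -1.35 and the MHC class I median -1.15, and Ikzf2, Itgae and Tnfrsf18 stood at -1.35, -0.31 and -0.66; against CD8 T cells 37 genes were lower and the receptor, regulatory and proliferation medians were -0.33, 0.32 and -0.57. In library 2 alone 86 genes were higher against CD8 T cells. Between libraries 60 genes were higher with TMM and 72 with median-of-ratios factors, and 92 lower with no gene filter, which gave 135 and 130 against CD8 T cells, where a pseudocount of 50 gave 29 and 31. Genes and lists under the minimum in a setting gave no value there. No paired analysis was possible because each treatment has 1 sample and no result comes from a test. A median depth of 1838 UMIs per cell limits what a missing transcript can show.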

Other observations

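The listed proliferation genes were not called in the full groups. Between cells with and without Foxp3, 0 of 6 proliferation genes that could be called were higher or lower (median log2 ratio 0.45), and against CD8 T cells 0 of 6 (0.22). Without the myeloid-marked cells 1 of 6 was called higher with Foxp3, with a median of 0.44. Ube2c, a mitosis gene outside this list, was called higher with Foxp3 in the full groups (1.92). Of 9 MHC class I genes 0 were called in either comparison, with medians of 0.02 and 0.15. The T cell receptor and signaling list had 0 of 17 called by Foxp3 (median -0.09), and against CD8 T cells 2 of 18 were higher (0.19).

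Checkpoint and activation genes went both ways against CD8 T cells. Of 9 checkpoint genes 1 was higher, Ctla4, and 2 were lower, Cd160 (12 against 158 UMIs, log2 ratio -1.29) and the nuclear receptor gene Nr4a2 (5 against 140 UMIs, -2.13). Of 8 activation genes, Nr4a1 was higher (34 against 71 UMIs, 1.13) and the immediate early gene Egr1 was lower (17 against 197 UMIs, -1.15). In the interleukin 2 list, 1 of 8 was higher, the cytokine-induced inhibitor gene Cish (43 against 96 UMIs, 1.06). By Foxp3, that list had 1 of 9 higher, Il2ra, and 1 lower, Bcl2. Of 7 Th1 genes 1 was higher and 1 lower against CD8 T cells, and by Foxp3 0 of 6 were higher and 1 lower (median -0.64).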
